A study of Mus musculus with 10 samples.

Results

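Immediate early genes are genes whose transcripts appear within minutes of a stimulus without new protein synthesis. The 10 described here were Fos, Fosb, Jun, Junb, Jund, Egr1, Ier2, Dusp1, Atf3 and Zfp36. They were chosen by gene symbol, all 10 were found among the 24544 genes of the deposited count table, and all 10 were among the 12203 genes with enough counts to be tested. The libraries were bulk RNA-seq of mouse long-term hematopoietic stem cells, the rare cells able to rebuild the blood system over the long term. All came from bone marrow of Hoxb5-mCherry mice aged 2 to 3 months, in which a red fluorescent protein reports Hoxb5, and all cells were sorted as Lin-, cKIT+, SCA1+, CD150+, CD48-, FLK2-, CD34- and Hoxb5+. The 5 NEO1+ and 5 NEO1- libraries differed in the surface receptor neogenin-1. Each library held RNA of 250 to 500 cells pooled from 2 mice, so it averages over animals. The libraries of each group were numbered 1 to 5, and the labels do not say what a shared number means.

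FOS and JUN proteins pair through leucine zippers to form AP-1, a transcription factor that binds the promoters of growth and stress genes. Transcription of immediate early genes is switched on by MAP kinases acting through the serum response factor with its ternary complex partners and through CREB, and it is shut off quickly because the messages and proteins are short-lived. The genes have long been studied in blood cells as reporters of cytokine and stress signalling, and they are also known to be induced when cells are taken out of tissue. Fos, Fosb, Jun, Junb and Jund encode subunits of AP-1, and Atf3 encodes a stress-induced factor that pairs with them. Egr1 encodes a zinc finger transcription factor, and Ier2 a nuclear immediate early protein. Dusp1 encodes a phosphatase that inactivates MAP kinases, and Zfp36 encodes tristetraprolin, which marks AU-rich messages for decay; both are feedback inhibitors.

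The promoters are shown because one short CREB motif was shared by several of the genes, and motifs were chosen after the sequences had been read. RefSeq sequence (GRCm38.p6) was held for 8 of the 10 genes, and Egr1 and Ier2 are named only. The windows run from 250 to 51 bases before the start that RefSeq gives and are written 5′ to 3′ on the gene's strand; capitals mark TGACG on either strand, the core of the cyclic AMP response element that CREB and ATF proteins bind. The windows were chr12:85473640-85473839 (+) for Fos, chr7:19310096-19310295 (-) for Fosb, chr8:84978799-84978998 (-) for Junb and chr17:26508523-26508722 (-) for Dusp1.
Fos: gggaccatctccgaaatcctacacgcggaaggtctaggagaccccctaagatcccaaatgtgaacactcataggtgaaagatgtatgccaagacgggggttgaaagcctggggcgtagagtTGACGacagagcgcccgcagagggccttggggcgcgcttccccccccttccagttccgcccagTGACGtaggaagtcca
Fosb: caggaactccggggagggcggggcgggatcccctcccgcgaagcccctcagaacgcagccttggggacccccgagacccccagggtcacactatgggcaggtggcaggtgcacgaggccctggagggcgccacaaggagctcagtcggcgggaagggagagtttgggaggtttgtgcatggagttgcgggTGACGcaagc
Junb: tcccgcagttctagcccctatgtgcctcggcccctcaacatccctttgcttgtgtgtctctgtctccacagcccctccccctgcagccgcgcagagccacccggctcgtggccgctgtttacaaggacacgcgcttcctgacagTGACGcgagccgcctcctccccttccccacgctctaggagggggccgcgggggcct
Dusp1: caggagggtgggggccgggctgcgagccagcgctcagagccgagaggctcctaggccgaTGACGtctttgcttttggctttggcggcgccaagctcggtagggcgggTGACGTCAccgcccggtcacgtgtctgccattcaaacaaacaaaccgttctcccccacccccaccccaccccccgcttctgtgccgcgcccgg
TGACG on either strand was found in 4 of the 8 windows, those printed, and in 12.7% of 32851 RefSeq mouse promoter windows of the same length. Fos held it at 129 and 66 bases before the start, counted to the first base of the match. Dusp1 held it on the given strand at 191 and 143 bases before the start, and the match at 143 continued into the palindrome TGACGTCA, whose other strand gives the remaining match. The full element TGACNTCA was in the Dusp1 window alone among the 8 and in 5.04% of all windows. The AP-1 element TGANTCA was in none of the 8 and in 5.57% of all windows, and the serum response element (CArG box) was in none and in 1.16%. Both strands were searched. Bases outside these windows were not searched, nor were Egr1 and Ier2, so elements there would be missed. The RefSeq starts lay within 47 bases of the GENCODE starts given below for 6 of the 8 genes, 4 of which held TGACG. For Jund the RefSeq start lay 1210 bases upstream, and for Zfp36 it lay 1025 bases downstream, so that the Zfp36 window falls inside the GENCODE transcript and neither window covers the bases before the GENCODE start. A match describes the letters and not binding.

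Library totals ran from 21.2 to 38.9 M counts, and levels below are CPM, counts per mega (M) counts of the TMM-scaled library. A count of 0 leaves room for up to 3 counts, or 0.0699 to 0.144 CPM by library. Neo1 had between 412 and 2556 counts in NEO1+ and between 150 and 593 in NEO1- libraries (log2 fold change 2.16 ± 0.47 SE; edgeR unadjusted p 0.000447, adjusted 0.248); NEO1+ library 4, at 12.5 CPM, lay below NEO1- library 1, at 18.9 CPM. The sorted reporter gene Hoxb5 had 51 to 169 and 0 to 80 counts, with the 0 in NEO1- library 3. All 12 stem cell markers listed, Kit and Procr among them, had enough counts to be tested, with a summed level of 2338 to 2626 CPM in NEO1+ and 2212 to 2768 in NEO1- libraries. Granulocyte and monocyte markers summed to 493 to 5167 CPM in NEO1+ and 382 to 3154 in NEO1- libraries. Erythroid markers summed to 1486 to 2232 and 1412 to 1729 CPM in the same order. The globin genes Hba-a2, Hbb-bt and Hbb-bs were at 0 in all libraries, but the listed globin gene Hba-a1 was not. Lymphoid markers summed to at most 85.6 CPM with Pax5, Cd3e, Dntt and Rag1 among those at 0, and stromal and endothelial markers to at most 82.2 CPM with Cdh5 and Lepr at 0. Megakaryocyte and platelet markers lay between 62.9 and 133 CPM, with Gp6 at 0. In bulk RNA, fewer cells that express a gene and less RNA per cell cannot be told apart.

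The genes lie on 6 chromosomes besides that of Egr1, whose position is not given here. On GRCm38 (GENCODE M21) the principal transcripts were Fos at chr12:85473890-85477273 (+, 4 exons), Fosb at chr7:19302696-19310051 (-, 4 exons) and Zfp36 at chr7:28376784-28380253 (-, 2 exons). The intronless genes, with 1 exon each, were Jun at chr4:95049034-95052222 (-), Junb at chr8:84976910-84978718 (-), Jund at chr8:70698949-70700616 (+) and Ier2 at chr8:84661331-84662852 (-). Dusp1 was at chr17:26505590-26508519 (-, 4 exons) and Atf3 at chr1:191170296-191183340 (-, 4 exons). Counts were per gene, so exons were not told apart.

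These were among the most abundant messages of the sorted stem cells. Fos ranked 5 and Jun 8 of the 12203 genes by mean log2 CPM, Egr1 ranked 51, and 8 of the 10 ranked 207 or better. Fosb ranked 555, and Atf3 ranked 11345 and was close to the detection floor. Together the 10 genes took between 0.594% and 1.3% of all counts of a library.

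To compare genes with each other, levels were divided by the length of the principal GENCODE M21 transcript. Fos stood highest at 1171 ± 399.9 CPM per kb (SD, n = 10 libraries), followed by Jun at 731 ± 188. Then came Jund at 407 ± 99.8, Ier2 at 384 ± 71.6, Junb at 341 ± 98.6 and Dusp1 at 323 ± 79.4 CPM per kb. Egr1 followed at 169.6 ± 59.7, Zfp36 at 119.8 ± 36.5, Fosb at 48.5 ± 16 and Atf3 at 0.746 ± 0.822 CPM per kb. Fos exceeded Jun, Jun exceeded Jund, Dusp1 exceeded Egr1, Egr1 exceeded Zfp36 and Zfp36 exceeded Fosb in 10 of 10 libraries each. The order among Jund, Ier2, Junb and Dusp1 was not fixed: Jund exceeded Ier2 in 5 of 10 libraries, Ier2 exceeded Junb in 8, and Junb exceeded Dusp1 in 4. Across libraries the ranges of neighbouring genes overlapped everywhere except between Fosb and Atf3.

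No difference between NEO1+ and NEO1- cells passed the main test in any of the 10 genes. In the quasi-likelihood test of edgeR over all 12203 genes, 0 of the 10 passed an adjusted p of 0.05, as did 0 genes in all (0.0%). At an unadjusted p of 0.05, 0 of the 10 were called in a background of 6.6% of genes, and the groups overlapped in all 10 genes, where 2.48% of genes did not overlap. DESeq2 called 147 genes (1.03%) and none of the 10. With the replicate number as a block, DESeq2 called 704 genes (5.08%), among them Fos (log2 fold change -0.19, adjusted p 0.0383) and Jun (-0.24, adjusted p 0.0166), and edgeR called 0 of the 10 and 0 genes in all (0.0%); the labels do not say that equal numbers pair the libraries. Fitted log2 fold changes, NEO1+ over NEO1-, were above 0 for 2 genes and below 0 for 8, with a median of -0.11. Of the 8, Zfp36 (-0.00018) and Ier2 (-0.02) lay close to 0 and changed sign in several other fits. Of all genes tested, 51.0% were above 0. The smallest p of the 10 was that of Fosb.

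**Figure D1:**
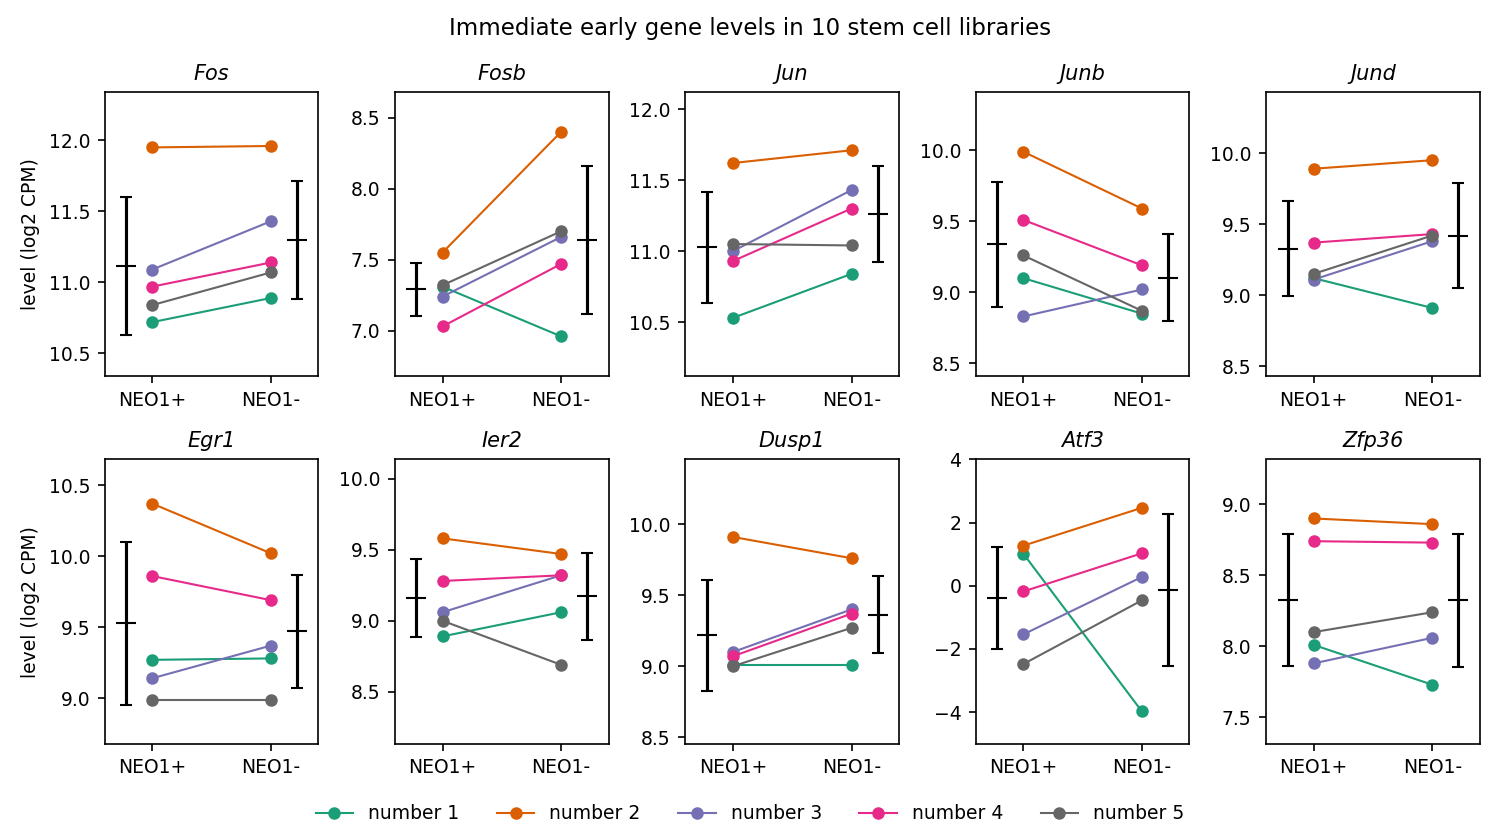
Level of each gene (log2 CPM, prior count 2) in NEO1+ and NEO1- libraries; points of one colour are libraries with the same number, joined by a line, and black bars give the mean ± SD (n = 5). Each panel spans 2 log2 units except Atf3; the libraries numbered 2 (orange) lie at or near the top in both groups, and the groups overlap in every panel.

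Among the FOS subunits, Fos was the more abundant by far. In NEO1+ libraries 1 to 5 it stood at 1690.5, 3959.6, 2179.7, 2003 and 1831 CPM. In NEO1- libraries 1 to 5 it stood at 1894, 3985, 2750.2, 2256 and 2143 CPM. Library 2 was highest in both groups by a wide margin, library 1 was lowest in both, and the ranges of the groups almost coincided. Group means were 2333 ± 928 for NEO1+ and 2605 ± 832 CPM for NEO1- (SD, n = 5 each). The log2 fold change of -0.16 ± 0.24 did not pass (SE; 95% interval -0.67 to 0.35; edgeR adjusted p 0.997).

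Fosb encodes a close relative of FOS. It stood at 158, 187, 151, 131 and 159 CPM in NEO1+ libraries 1 to 5 and at 124, 337, 202, 178 and 208 CPM in NEO1- libraries 1 to 5. NEO1- library 2 stood above all others and NEO1- library 1 below all others, so the NEO1+ libraries lay within the NEO1- range. The log2 fold change was -0.41 ± 0.21 (SE; 95% interval -0.87 to 0.04; edgeR unadjusted p 0.0695, adjusted 0.802). NEO1- libraries were the more variable, with an SD of 78.4 CPM against 20.4.

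The JUN subunits can pair with themselves as well as with FOS proteins. Jun, whose antisense neighbour Junos overlaps it, stood at 1477, 3145, 2049.6, 1956 and 2119 CPM in NEO1+ libraries 1 to 5. In NEO1- libraries 1 to 5 it stood at 1837, 3351, 2764, 2518 and 2100.4 CPM. Library 2 was again highest and the ranges overlapped over most of their width. Jun had a log2 fold change of -0.23 ± 0.18 (SE; 95% interval -0.62 to 0.17; edgeR adjusted p 0.934).

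Junb, which can restrain JUN activity, was the gene with the largest positive fitted value. Its levels were 548, 1019, 454, 728 and 611 CPM in NEO1+ libraries 1 to 5, and 462, 773, 517, 584 and 468 CPM in NEO1- libraries 1 to 5. Both libraries numbered 2 stood highest in their group, and the lowest value of all was that of NEO1+ library 3. Junb had a log2 fold change of 0.26 ± 0.2 (SE; 95% interval -0.17 to 0.69; edgeR adjusted p 0.916).

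Jund, the JUN gene usually expressed at a steady level in resting cells, also varied. NEO1+ libraries 1 to 5 held 555, 946, 551, 661 and 566 CPM, and NEO1- libraries 1 to 5 held 481, 986, 665, 692 and 685 CPM. Library 2 exceeded every other library in both groups. The log2 fold change was -0.1 ± 0.18 (SE; 95% interval -0.49 to 0.3; edgeR adjusted p 0.998). The antisense gene Gm11175 overlaps Jund, and with the strand of counting unknown the reads of each cannot be told apart. The same holds for Jun with Junos and for Zfp36 with Gm44710.

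Atf3 was nearly silent. Raw counts were 41, 92, 12, 27 and 4 in NEO1+ libraries 1 to 5 and 0, 117, 34, 65 and 20 in NEO1- libraries 1 to 5. The single 0, in NEO1- library 1, allows up to 0.0955 CPM, and NEO1- library 2 was highest at 5.48 CPM. The log2 fold change of -0.74 ± 1.45 (SE; 95% interval -3.87 to 2.39; edgeR adjusted p 0.998) excluded little at this depth.

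Egr1, which restrains proliferation and mobilisation of stem cells in mice, stood at 617, 1326, 566, 932 and 510.1 CPM in NEO1+ libraries 1 to 5. In NEO1- libraries 1 to 5 it stood at 622, 1038, 660.1, 827 and 509 CPM. Library 2 was highest, library 4 next and library 5 lowest in both groups. The fitted log2 fold change was 0.11 ± 0.25 (SE; 95% interval -0.43 to 0.66; edgeR adjusted p 0.998).

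Ier2 was the steadiest of the genes. It stood at 473, 764, 534, 619.7 and 514 CPM in NEO1+ libraries 1 to 5 and at 532, 709.8, 638, 641 and 414 CPM in NEO1- libraries 1 to 5. The libraries numbered 2 were highest, and NEO1- library 5 was lowest. Its log2 fold change was -0.02 ± 0.15 (SE; 95% interval -0.35 to 0.31; edgeR adjusted p 1.0).

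The feedback genes followed the same libraries. Dusp1 stood at 516, 963, 549.9, 537 and 512 CPM in NEO1+ libraries 1 to 5, and at 517, 868, 677, 662 and 617 CPM in NEO1- libraries 1 to 5. NEO1+ library 2 stood alone above its group, whose other 4 libraries lay within 512 to 549.9 CPM, and NEO1- library 2 was highest in its group. The log2 fold change was -0.12 ± 0.18 (SE; 95% interval -0.51 to 0.27; edgeR adjusted p 0.997).

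Zfp36, overlapped by the antisense gene Gm44710, stood at 258, 477, 236, 426 and 274 CPM in NEO1+ libraries 1 to 5. In NEO1- libraries 1 to 5 it stood at 212, 464, 267, 426 and 302 CPM. As for Egr1, library 2 was highest and library 4 next in both groups. The group means were 334 ± 109 and 334 ± 107 CPM (SD, n = 5 each), and the 95% interval of the log2 fold change ran from -0.51 to 0.51 (edgeR adjusted p 1.0).

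For 9 of the genes the 95% intervals lay within -0.87 and 0.69 on the log2 scale. They bound the differences only in the fit without a block. With the replicate number as a block the edgeR SE was smaller for each of these 9 genes. It ran from 0.05 for Fos (0.24 without the block) to 0.16 for Fosb (0.21 without it). Direction was not stable for several. Without NEO1- library 2 the log2 fold change was 0.05 for Fos, 0.06 for Jund and 0.22 for Atf3, and without NEO1+ library 2 it was -0.16 for Egr1. Without both libraries numbered 2, 0 of the 10 genes passed adjustment in edgeR (0.0% of 12290 genes), and Dusp1 alone had an unadjusted p under 0.05, in a background of 5.31%. Without NEO1+ library 2 alone, Fos, Jun and Dusp1 had an unadjusted p under 0.05, with 655 of 12435 genes, and without NEO1- library 1 Fosb had one, with 912 of 12545 genes; none of the 4 passed adjustment in these edgeR fits.

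For every gene but Fosb, the within-group SD of log2 CPM was larger than the size of the fitted log2 fold change. For Fosb the SD was 0.39 and the fitted value -0.41. NEO1+ library 2 and NEO1- library 2 stood above the median of the 10 libraries for 10 of 10 genes, and each was the highest of all libraries for 5 genes. Their median differences from the mean of the 10 libraries were 0.60 and 0.55 on the log2 CPM scale. NEO1- library 4 was also above the median for 10 of 10 genes, by a smaller margin (median difference 0.12). NEO1- library 1 was above it for 0 genes, with a median difference of -0.34, and was the lowest library for 4. The highest library exceeded the lowest by 1.85-fold for Ier2 and by up to 2.71-fold, for Fosb, among the genes other than Atf3. The summed level of the 10 genes was 12789 CPM in NEO1+ library 2 and 12517 CPM in NEO1- library 2, against 6294 to 7993 CPM in the other NEO1+ and 6681 to 9141 CPM in the other NEO1- libraries.

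**Figure D2:**
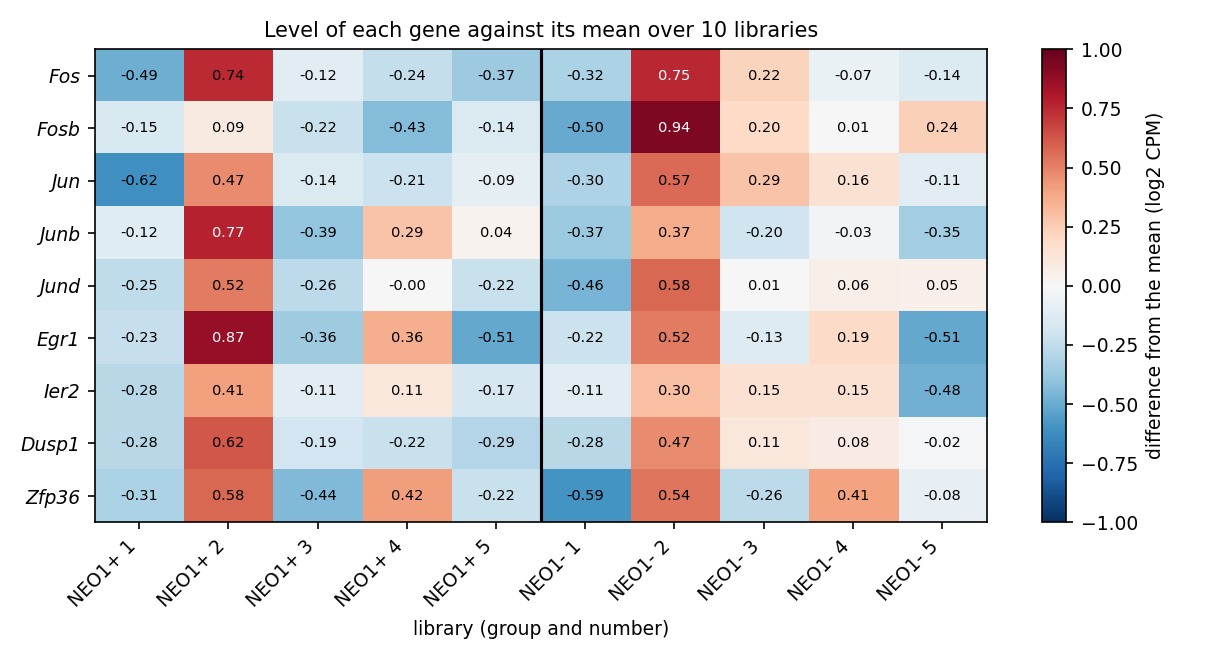
Difference of each gene from its own mean over the 10 libraries (log2 CPM, printed in each cell), NEO1+ libraries left of the line and NEO1- libraries right; Atf3 is left out because of its counts near 0. Both columns numbered 2 are above the mean for all 9 genes, and the column NEO1- 1 is below the mean for all 9.

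This spread was large for genes of such abundance. The within-group SD of log2 CPM was 0.49 for Egr1, 0.46 for Zfp36, 0.45 for Fos, 0.37 for Jun and 0.29 for Ier2, against a median of 0.17 over the 298 genes with a mean log2 CPM above 8. Of those 298 genes, 1 had a larger SD than Egr1, 2 than Zfp36, 3 than Fos and 23 than Ier2. The libraries numbered 2 also had low levels of granulocyte and monocyte markers, 493 CPM in NEO1+ (the lowest of its group) and 551 CPM in NEO1-, where library 1 was lower at 382 CPM. All 12 of these markers that were tested correlated negatively with the mean of the 10 genes over the libraries (median r -0.35, across genes that share the same 10 libraries). Erythroid markers were lowest in the libraries numbered 2 in both groups, at 1486 and 1412 CPM. The part of these other markers in the levels of the immediate early genes was not tested.

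The levels of the genes varied together across libraries. Pearson r of log2 CPM over the 10 libraries was positive for 45 of 45 pairs of genes, with a median of 0.74 and a range of 0.33 to 0.97. As a background, 52.4% of 12193 other genes correlated positively with the mean of the 10 genes, with a median r of 0.02, and 66.2% of the 290 other abundant genes did, with a median r of 0.185. This is not the same measure as r between pairs of genes, for which no background was taken. Jund had the highest median r with the other 9 genes (0.80) and Atf3 the lowest (0.63). The libraries numbered 2 carried much of this, and over the other 8 libraries 40 of 45 pairs were positive, with a median of 0.43 and a range of -0.31 to 0.89.

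Fos and Dusp1 were the closest pair, with r 0.97 (permutation p 1e-05, the smallest that 100000 permutations give; adjusted over 45 pairs 0.00045) and rho 0.96 (permutation p 4e-05, adjusted 0.0018). Without the 2 libraries farthest from the median, those numbered 2, their r was 0.88. Fos and Jun had r 0.93 (permutation p 3e-05, adjusted 0.000675) and rho 0.87 (permutation p 0.0022, adjusted 0.0198), and r 0.89 without the same libraries. Jund and Dusp1 had r 0.93 (permutation p 0.00045, adjusted 0.00414), rho 0.81 (permutation p 0.00711, adjusted 0.0298) and r 0.77 without them. Permutation p-values here and below treated the 10 libraries as independent. Same-numbered libraries resembled each other in these genes, so the p-values may be too small. Among all 12202 other genes, Dusp1 ranked 1, Jun 2 and Jund 5 by r with Fos. Ier2 ranked 37, Egr1 50, Fosb 58, Junb 132, Zfp36 152 and Atf3 220.

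Fosb gave the 3 lowest values. Its r with Egr1 was 0.33 (permutation p 0.365, adjusted 0.365; rho 0.15, permutation p 0.681, adjusted 0.681) and fell to -0.07 without the farthest libraries, NEO1- 1 and NEO1- 2. With Junb it was 0.33 (permutation p 0.351, adjusted 0.359; rho 0.35, permutation p 0.33, adjusted 0.346) and -0.13 without the same libraries. With Ier2 it was 0.34 (permutation p 0.348, adjusted 0.359; rho 0.3, permutation p 0.407, adjusted 0.416) and -0.02 without them. These relations did not hold beyond the libraries at the ends.

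**Figure D3:**
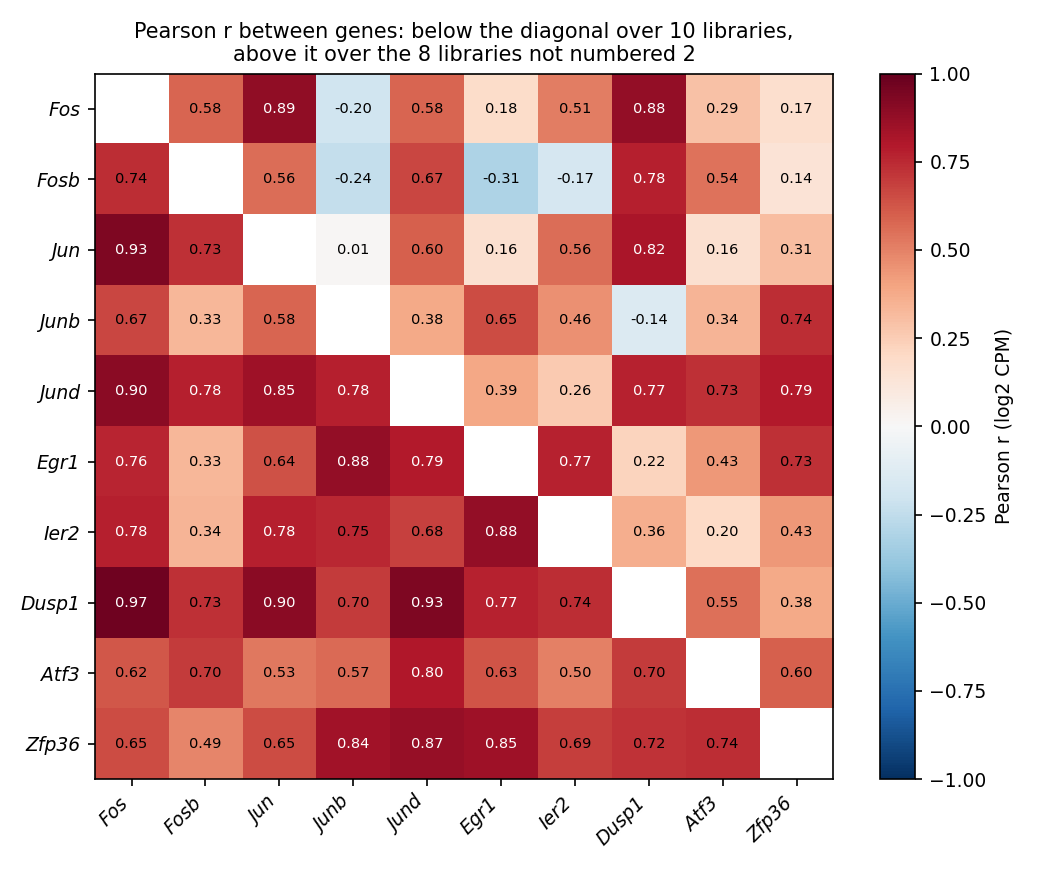
Pearson r of log2 CPM between genes, over 10 libraries below the diagonal and over the 8 libraries not numbered 2 above it. Below the diagonal every value is 0.33 or higher; above it values run from -0.31 to 0.89, with high values among Fos, Fosb, Jun and Dusp1 and among Junb, Egr1, Ier2 and Zfp36.

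Over the 8 libraries not numbered 2 the pairs were uneven. The 6 pairs within Fos, Fosb, Jun and Dusp1 had r of 0.56 to 0.89 (median 0.8), and the 6 pairs within Junb, Egr1, Zfp36 and Ier2 had r of 0.43 to 0.77 (median 0.69). The 16 pairs between these sets had r of -0.31 to 0.56 (median 0.165). The sets were chosen after these values were seen and carry no test. Promoters with TGACG were found in both, in Fos, Fosb and Dusp1 of one and Junb of the other. In the second set Egr1 and Ier2 had no sequence, and the Zfp36 window fell inside the GENCODE transcript. The sets therefore cannot be compared by this motif.

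Same-numbered libraries of the groups resembled each other in these genes. Fos was the clearest case: NEO1+ minus NEO1- differences for numbers 1 to 5 were -0.16, -0.01, -0.34, -0.17 and -0.23 on the log2 CPM scale. Their SD was 0.12, against SDs of 0.49 and 0.42 within the groups, and NEO1+ was the lower in 5 of 5, as in 4.87% of all genes. For Zfp36 the differences were 0.28, 0.04, -0.18, 0.0 and -0.14, with an SD of 0.18 against 0.46 and 0.47 within the groups. Egr1 differences were -0.01, 0.35, -0.22, 0.17 and 0.0, with an SD of 0.22 against 0.58 and 0.4.

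Among Jun, Junb, Jund and Fosb, the differences of Fosb varied most. Jun differed by -0.31, -0.09, -0.43, -0.36 and 0.01 (SD 0.19, against 0.39 and 0.34 within the groups). Junb differed by 0.25, 0.4, -0.19, 0.32 and 0.39 (SD 0.24, against 0.44 and 0.31). Fosb differed by 0.35, -0.85, -0.42, -0.44 and -0.38 (SD 0.43, against 0.19 and 0.52 within the groups). Jund differed by 0.2, -0.06, -0.27, -0.07 and -0.27 (SD 0.2, against 0.33 and 0.37). For number 3 the NEO1+ library was the lower for 10 of 10 genes, and for numbers 1 and 2 it was the lower for 5 each. No share over all genes was taken for these counts. The 10 genes varied together across libraries, so they are not separate observations.

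**Figure D4:**
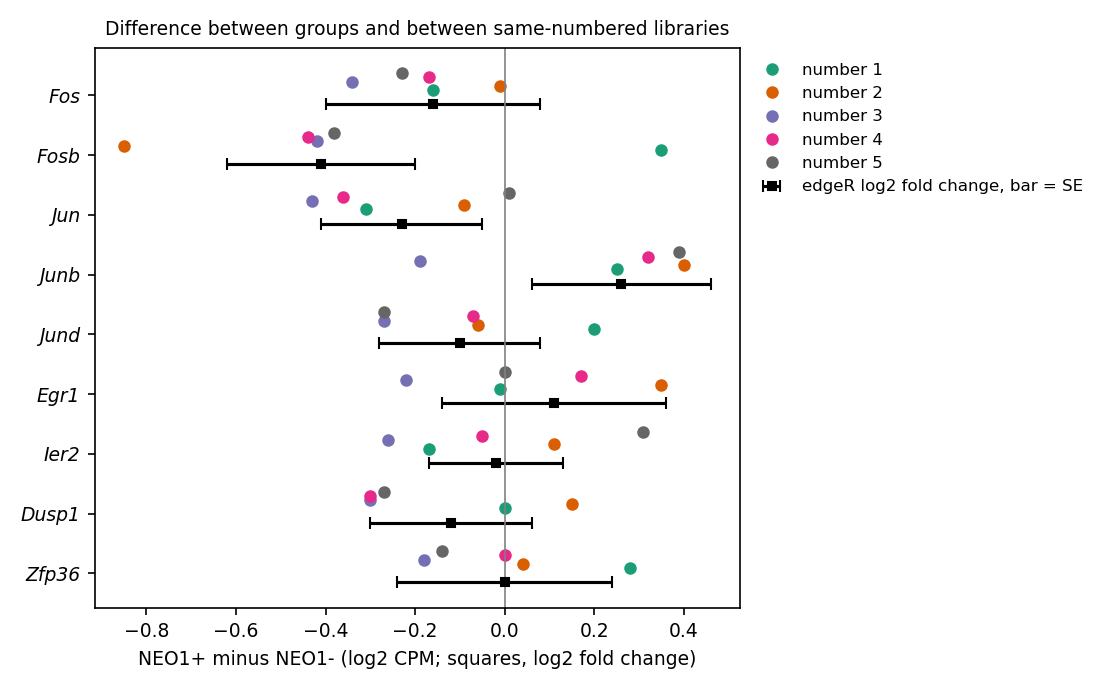
NEO1+ minus NEO1- difference in log2 CPM for each number (coloured points) and the edgeR log2 fold change with its SE (black squares and bars), for 9 genes without Atf3. The points of Fos lie between -0.34 and -0.01, those of Fosb between -0.85 and 0.35.

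A ratio of variances describes this over all genes: the variance of the 5 same-numbered differences divided by the sum of the variances of the groups, near 1 where equal numbers share nothing and 0 where same-numbered libraries move in parallel. The measure was chosen after the data were seen. It was 0.0338 for Fos, 0.078 for Zfp36, 0.0957 for Egr1, 0.134 for Jun, 0.158 for Jund, 0.19 for Dusp1, 0.204 for Junb, 0.305 for Ier2, 0.617 for Fosb and 1.04 for Atf3. The median was 0.174, against 0.975 over all 12203 genes and 0.79 over the 298 abundant genes. It was under 0.5 for 8 of 10 genes, as for 14.1% of all genes and 24.8% of the abundant ones. Without number 2 the median was 0.584, against 0.971 over all genes and 0.808 over the abundant ones, and 4 of 10 genes were under 0.5 (17.7% of all genes and 28.5% of the abundant ones). These were Fos at 0.0832, Egr1 at 0.115, Zfp36 at 0.138 and Jun at 0.308. Ier2 was at 0.545, Dusp1 at 0.623, Junb at 0.634, Jund at 0.651, Fosb at 1.09 and Atf3 at 1.55.

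Deviations from the group mean pointed the same way in same-numbered libraries for 38 of 50 combinations of gene and number (76.0%), against 51.5% over all genes and 56.5% over the abundant genes. By number the counts were 8, 10, 4, 8 and 8 of 10 genes. The median deviation was 0.62 and 0.53 for number 2 in NEO1+ and NEO1-, -0.25 and -0.41 for number 1, and -0.2 and -0.23 for number 5. Correlating the 10 deviations between libraries gave a mean r of 0.11 for the 5 same-numbered and -0.03 for the 20 differently numbered pairs, a difference of 0.14. Atf3 weighed heavily in it: over the other 9 genes the means were 0.39 and -0.09, and the difference was 0.48. Leaving out single libraries moved the 10-gene difference between -0.47 and 1.11, so no direction is drawn from it.

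Other genes of the pathway did not pass the test either. Of 24 other immediate early transcription factors, 21 were tested and 0 passed in either direction; 13 had fitted values above and 8 below 0 (median log2 fold change 0.16). Unadjusted p values were under 0.05 for 2, both lower in NEO1+ (3.49% of all genes). Myc, a driver of growth, had mean levels of 261 ± 46.8 CPM in the NEO1+ group and 365 ± 94 in the NEO1- group (SD, n = 5 per group), a fitted difference of -0.48 ± 0.17 on the log2 scale (SE; edgeR adjusted p 0.586). Klf4 had means of 12.7 ± 8.17 and 25.6 ± 11.4 CPM and a fitted difference of -1.01 ± 0.43 (SE; edgeR adjusted p 0.705), and Per1 had a log2 fold change of -0.45 (adjusted p 0.784). In the other direction Klf10 had 0.5 (adjusted p 0.861), Mafk 0.34 (adjusted p 0.89) and Fosl1 2.41 from a few counts (adjusted p 0.898).

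Among 32 other immediate early regulators, 29 were tested and 0 passed, with 14 above and 15 below 0. Ccl4, a chemokine gene, was the only one with an unadjusted p under 0.05, with means of 9.8 ± 2.32 CPM for NEO1+ and 17.7 ± 3.65 for NEO1- without overlap (log2 fold change -0.85, edgeR adjusted p 0.705). Over all genes 3.49% were lower at that p and 2.48% did not overlap, so 1 of 29 is near the background. Dusp2 (-0.31, adjusted p 0.79) and Zfp36l2 (-0.27, adjusted p 0.81), relatives of Dusp1 and Zfp36, also had fitted values below 0. Plk2, Btg2 and Socs3 had the smallest p values in the other direction, with adjusted p values from 0.898 to 0.909.

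Of 13 other partners of AP-1, 11 were tested and 0 passed, with a median log2 fold change of 0.4. Atf6, a sensor of endoplasmic reticulum stress, had means of 27.8 ± 5.89 CPM for NEO1+ and 12.2 ± 4.74 for NEO1- without overlap (log2 fold change 1.19 ± 0.33 SE, edgeR unadjusted p 0.00327, adjusted 0.404) and was the only one with an unadjusted p under 0.05 (3.11% of all genes were higher at that p). All 22 MAP kinase and serum response genes were tested and 0 passed (13 above and 9 below 0), Mapk9, a JUN kinase, having the smallest p (log2 fold change -0.49, edgeR adjusted p 0.673). Of 14 heat shock genes 13 were tested and 0 passed, with Bag3 at a log2 fold change of -0.68 (edgeR adjusted p 0.616).

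Some of these genes followed the immediate early genes across libraries. The median r with the mean of the 10 genes was 0.315 for the other immediate early transcription factors (15 of 21 positive) and 0.367 for the other regulators (24 of 29 positive). It was 0.0249 for the AP-1 partners, 0.0697 for the kinases (12 of 22 positive) and 0.129 for heat shock genes (8 of 13 positive), against 0.0238 over all other genes. The highest values in these lists were 0.85 for Klf2, 0.84 for Ppp1r15a and 0.78 for Klf6. Next came 0.75 for the small heat shock gene Hspb1, and 0.74 for both Rhob and Klf4. Hspb1 was close to the detection floor, at 0 to 4.86 CPM. The lowest values were -0.73 for Cebpd, one of the other immediate early transcription factors, and -0.7 for the AP-1 partner Atf2. Ppp1r15a, a phosphatase subunit of the stress response, stood at 432 CPM in NEO1+ library 2 and 435 CPM in NEO1- library 2, above every other library.

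The 5 genes outside the 10 most like their mean were Trim8 (r 0.936, rho 0.9), Atxn2 (r 0.886, rho 0.92), Cxx1b (r 0.856, rho 0.88), Ensa (r 0.854, rho 0.65) and Klf2 (r 0.853, rho 0.76), over 10 libraries. Without the libraries numbered 2 their r was 0.82, 0.8, 0.81, 0.2 and 0.56. Those most like Fos were Pik3ca (r 0.912), Ensa (r 0.909) and Mrpl34 (r 0.879), with 0.87, 0.44 and 0.87 over the other 8 libraries. They were picked by this likeness out of all genes tested, so the values are a description with no test.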

How the data were processed

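RNA of 10 sorted cell pools was made into cDNA by Smart-seq2 (oligo-dT priming, 18 PCR cycles), and 40 ng was tagmented with Nextera, per the labels' protocols. The submitters' processing notes name bcl2fastq 2.18, STAR 2.4, DESeq2 1.22.2 and the build mm10; the counting tool, annotation and strand are not given in the sources used here. The authors deposited raw counts per gene symbol and, beside them, log2 values, which per the file headers are DESeq2 size-factor normalised; they equalled log2 of the scaled count plus 1 to within 5.2e-14. No molecular identifiers were used, so floors and intervals from counts cover counting error only. Nothing says that libraries came from separate preparations beyond the pools of mice, so p-values measure the spread between these libraries, which may be technical.

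Counts were tested with edgeR 4.0.16 (R 4.3.3; filterByExpr, TMM, robust quasi-likelihood fit, no block), adjusted by Benjamini-Hochberg over 12203 genes at 0.05; 8860 of 24544 genes had no count. SE was derived from the fold change and its F statistic, and log2 CPM uses a prior count of 2. Intervals are 95%. Both deposited tables named all columns by group and number, and 0 columns were left out. Scripts were tested on simulated data. Alternatives were DESeq2 1.42.0, limma 3.58.1 (voom, and trend on the deposited log2 values), a replicate block, RLE and upper-quartile scaling, no low-count filter, Rn45s left out (an rRNA precursor, 27.9% to 42.5% of counts), a prior count of 0.5, and leaving out each library. Fits without both libraries numbered 2, and values without Atf3, were added after the data were seen. The genes and lists were chosen with earlier results of these data known. Genes named are the 10, and the 3 pairs of highest and of lowest r. Also named are up to 3 genes of smallest p per list and direction, and the genes most like the mean (5) or Fos (3). Klf6, Rhob, Ppp1r15a, Hspb1, Cebpd, the heat shock genes beyond that rule, Neo1 and Hoxb5 were added after their values were seen. Promoters came from RefSeq (GRCm38.p6) and transcript lengths from GENCODE M21.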

Additional observations from a re-analysis of the deposited data

Results flagged for a closer look

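Dusp1 in NEO1+ library 2 stood far from the other libraries of its group, at a log2 CPM of 9.91 against 9.0 to 9.1 in the other 4. The gap to the nearest library was 0.887 of the whole range of the group. Of 20 groups of libraries examined in this way (10 genes in both groups), 1 stood out, and 1.0 is the number chance gives.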

How the results depend on the processing

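The 10 genes stayed short of the threshold in all edgeR, limma and DESeq2 fits except DESeq2 with the replicate block, which called 2 of them (Fos -0.19, adjusted p 0.0383, and Jun -0.24, adjusted p 0.0166), with 704 genes called in all (5.08%). With the replicate block edgeR called 0 of the 10 and 0 genes (unadjusted 3 of the 10, Fos, Jun and Junb, against 7.16%; the adjusted p of Fos was 0.537). Whether the numbers pair the libraries is not stated; deviations of same-numbered libraries correlated at 0.0 to 0.04 over all genes and 0.16 to 0.5 over the 298 abundant ones, where 10 of 10 libraries correlated best with their own number. Genes passing numbered 0 with edgeR as described, 147 with DESeq2, 2 with limma-voom, 2 without the low-count filter, 1 with limma-trend and 0 to 1 without single libraries, the 1 without NEO1- library 1. Signs turned for Ier2 (0.03 with limma-voom; -0.13 to 0.06 without single libraries), Zfp36 (0.04 with limma-voom, 6.6e-05 with the replicate block, 6.7e-05 with upper-quartile scaling, 0.0033 without the filter; -0.16 to 0.15), Atf3 (0.05 with limma-voom; -1.22 to 0.22), Fos (-0.44 to 0.05), Jund (-0.27 to 0.06) and Egr1 (-0.16 to 0.27), while Fosb, Jun, Junb and Dusp1 kept theirs in every fit. The median correlation was 0.65 to 0.78 without single libraries and 0.43 without both libraries numbered 2. The same-numbered difference of 0.14 became -0.1 with a prior count of 0.5, -0.35 without both libraries numbered 2 and -0.47 to 1.11 without single libraries. It was 0.48 without Atf3, and 0.71 without Atf3 and both libraries numbered 2. The causes were not tested. Among the 10 genes depth limits Atf3 most, at 0 to 117 counts per library.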

Other observations

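The libraries numbered 4 stood out in some heat shock genes. Not all followed: Bag3 was highest of its group in NEO1+ library 4 (39.4 CPM) but lowest of its group in NEO1- library 4 (30.7 CPM). Hspa1a, an inducible chaperone whose near-identical copy Hspa1b makes its counts uncertain, stood at 60.9 CPM in NEO1+ library 4 and 82.3 CPM in NEO1- library 4. In the other NEO1+ libraries it stood at 0.726 to 3.84 CPM, and in the other NEO1- libraries at 0 to 15 CPM. Hsph1, a co-chaperone of HSP70, stood at 97.6 and 96.8 CPM in the libraries numbered 4, against 17.5 to 48.9 CPM in the other NEO1+ and 36.1 to 50.9 CPM in the other NEO1- libraries. Hspa5, the chaperone of the endoplasmic reticulum, and Dnajb1, an HSP40, were also highest in these libraries, at 796 and 369 CPM in NEO1+ and 880.5 and 285 CPM in NEO1-. Fos stood at 2003 and 2256 CPM there, the middle of each group, and Egr1 and Zfp36 had their second highest level of each group. These genes were picked after their values were seen, and the pattern carries no test.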
